A study of Mus musculus with 2 samples.

Results

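Nonsense-mediated decay (NMD) transcripts are spliced RNAs whose annotated stop codon lies, as a rule, at least 50 bases before the last exon junction. In most of them the reading frame ends earlier than in the gene's main coding transcript. The transcripts described here are those that the GENCODE M21 annotation types as nonsense_mediated_decay and that had at least 1 count in either of 2 long-read RNA libraries. They number 725, of 7186 transcripts with that annotated type and of 24261 annotated mouse transcripts with a count. Both libraries come from gastrocnemius, a fast muscle of the calf, of male B6CASTF1/J mice (F1 hybrids of C57BL/6J and CAST/EiJ) at 4 days of age, with 2 µg of total RNA each. They form 1 group with no treatment and no second genotype, so no groups were compared. The labels name separate biosamples but 1 shared donor entry, and do not say whether separate animals were used. The SD over n = 2 below is therefore the spread between these libraries, which may be technical.

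In NMD, a ribosome that stops at a codon lying well upstream of the last exon junction leaves an exon junction complex on the RNA. Upf1 and its partners then recruit decay enzymes. A stop more than about 50 bases before the last junction is the usual criterion, and annotators use it to assign this transcript type. Many genes of splicing factors carry a poison exon, a cassette whose inclusion brings a stop codon into frame, and several SR proteins lower their own mRNA in this way. Steady-state counts hold what is left after decay, so they are levels and not rates of production.

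Replicate 1 held 1066347 counts and replicate 2 held 1100253, of which 26345 and 15034 were on spike-ins. Known transcripts, those whose splice pattern matches an annotated model, took 724391 (67.9%) and 774108 (70.4%) of them on mouse genes. All 7 skeletal muscle markers were counted in both libraries, at 151397 and 150347 CPM in sum (counts scaled to the library's counts on annotated mouse genes). Markers of skin and hair differed, with 1 of 7 counted in replicate 1 (4.01 CPM in sum) and 7 of 7 in replicate 2 (1044 CPM), and so did those of Schwann cells (1426 and 3452 CPM), fibroblasts (35983 and 23822 CPM) and blood (211 and 338 CPM). The part of these cells in the values below was not tested.

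Stretches that end the reading frame are printed first. They come from members whose stop lies outside the exons of the gene's most counted coding transcript. These are a minority, since in 461 of 695 comparable members (66.3%) the stop lies within those exons. Each of the following 8 runs from the first base of an exon that the gene's most counted coding transcript lacks to the stop codon, which is in capitals. They cover the most counted members of this kind, the SR protein Srsf3, and the actin and sarcomere genes Actg1 and Myoz2, the choice having been made after values were seen. The letters are GENCODE M21's transcript sequences on mm10, 5′ to 3′, so they are reference C57BL/6J letters and not those of the hybrid animals.

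E2f6-204, chr12:16813847-16813879, plus strand: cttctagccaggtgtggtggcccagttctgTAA
Yaf2-202, chr15:93317554-93317608, minus strand: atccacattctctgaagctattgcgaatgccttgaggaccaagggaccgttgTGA
Rbm7-204, chr9:48494364-48494387, minus strand: tatttgaggcagagagccataTAG
Rbm39-225, chr2:156178881-156178952, minus strand: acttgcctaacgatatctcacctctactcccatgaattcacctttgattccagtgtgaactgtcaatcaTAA
Fbxo17-202, chr7:28737339-28737482, plus strand: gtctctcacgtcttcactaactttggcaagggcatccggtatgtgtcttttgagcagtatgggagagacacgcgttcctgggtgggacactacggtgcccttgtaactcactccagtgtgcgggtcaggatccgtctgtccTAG
Srsf3-201, chr17:29039454-29039487, plus strand: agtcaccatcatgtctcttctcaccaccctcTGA
Actg1-206, chr11:120347501-120347536, minus strand: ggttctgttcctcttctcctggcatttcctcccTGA
Myoz2-203, chr3:123033326-123033363, minus strand: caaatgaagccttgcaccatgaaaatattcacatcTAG

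In the next pair the frame ends in bases gained by an alternative splice site or a longer exon rather than by a whole exon.

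Tmem234-210, chr4:129601135-129601179, plus strand: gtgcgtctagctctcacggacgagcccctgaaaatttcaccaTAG
Pcnp-206, chr16:56024579-56024637, minus strand: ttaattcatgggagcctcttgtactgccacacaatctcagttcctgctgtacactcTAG

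In Ddx5-208, the second most counted member, the frame ends within the first 5 bases of a retained intron, gtTAG at chr11:106783954-106783958 on the minus strand. Over all 724 members with an annotated stop, TGA closed 421 (58.1%), TAG 153 and TAA 150.

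NMD transcripts were a small part of the annotated output of the muscle. They held 1693 counts in replicate 1, or 0.234% of Known counts (exact Clopper-Pearson 95% interval 0.223 to 0.245), and 1895 in replicate 2, or 0.245% (0.234 to 0.256). The mean was 0.239 ± 0.00784% (SD, n = 2), and the intervals of the libraries overlap. Intervals here cover counting error only. Transcripts typed retained_intron held 0.774% and 0.870%, and those typed processed_transcript held 0.304% and 0.336%. Within the genes that have an annotated NMD transcript, the share of Known counts was 1.13% in replicate 1 and 1.23% in replicate 2. The 725 members belong to 652 genes, of which 60 had 2 or more counted. All but 1 lie in protein-coding genes, the exception being a polymorphic pseudogene.

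Of the annotated transcripts of this type, 10.1% were counted, close to the 10.8% of retained_intron transcripts and below the 31.3% of protein_coding ones. The median summed count of a counted member was 2, beside 11 for a counted coding transcript. Counts were concentrated: the top transcript, Smpx-201, held 9.73% of NMD counts, the top 10 held 23.7% and the top 50 held 47.9%. Without Smpx-201, a comparison chosen after seeing the data, the mean share of Known counts was 0.216%.

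Both libraries counted 345 of the 725 members (47.6%), while 186 were seen in replicate 1 only and 194 in replicate 2 only. Of these 380 single-library members, 270 had 1 count and the highest had 6. The share seen in both was 75.1% for coding transcripts, which are more deeply counted, 33.4% for retained_intron and 36.5% for processed_transcript, whose median summed count is 1. At 2 or more summed counts the share was 75.8% for NMD transcripts, 70.3% for retained_intron, 73.3% for processed_transcript and 90.3% for coding transcripts. At 5 or more summed counts, 175 of 179 members were in both libraries, and at 10 or more, 64 of 64 were. The members in both libraries held 85% of NMD counts.

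For each gene the NMD share is the counts on its NMD transcripts over its Known counts. It was read for the 4585 genes with at least 20 Known counts in each library, of which 1277 have an annotated NMD transcript and 328 (25.7%) had a count on one. A gene at 20 counts cannot show a share under 5%, since that is what 1 count is worth there. Over these 328 genes the median share was 2.41% (quartiles 1.18 and 6.15). The share was under 5% in both libraries in 196 genes. It reached 10% in both in 34 genes, 25% in 13 and 50% in 3, namely Smpx, Cyth2 and Rbm7. Read in a single library, over the wider set of genes with at least 20 Known counts in that library, 10% was reached in 58 genes of replicate 1 and 65 of replicate 2. There 50% was reached in 3 and 8.

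The 10% line is not a gap in the data. Just inside it, chosen for their place at the line, were Ahnak (4 of 23 and 2 of 20 counts) and Ankrd10 (7 of 45 and 4 of 40). Just outside were Ntmt1 (5 of 51 and 9 of 60) and Malsu1 (3 of 31 and 10 of 51).

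Across the 328 genes the shares of the libraries correlated with Pearson's r of 0.879 and Spearman's rho of 0.412. This describes genes within 2 libraries, which are not independent replicates and share their counting depth, and the genes were kept for having a count in at least 1 library. The shares differed by a median of 2.22 percentage points, with 257 genes within 5 points and 22 over 10. The widest gap was that of Rbm7, at 26.2 points. The share was higher in replicate 2 in 170 genes and in replicate 1 in 158.

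**Figure D1:**
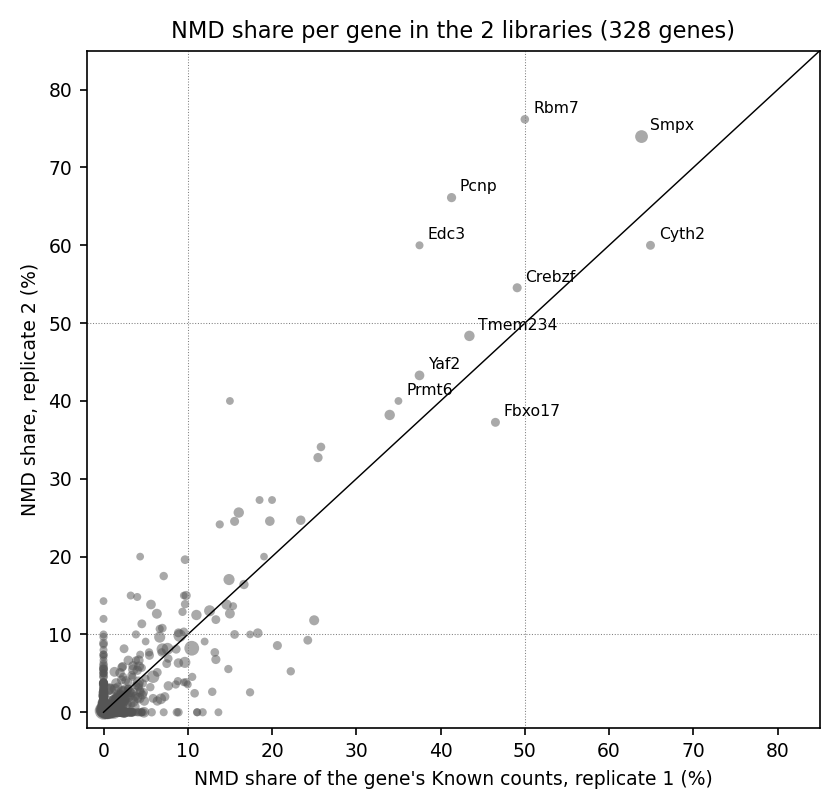
Each point is 1 of 328 genes with at least 20 Known counts in each library and a counted NMD transcript; axes give the NMD share (%) in replicate 1 and replicate 2, point area grows with Known counts, the solid line marks equal shares and dotted lines 10% and 50%. Most points sit near the origin (median 2.41%), and only Smpx, Cyth2 and Rbm7 reach 50% on both axes.

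A two-sided Fisher's exact test compared each Known transcript's share of its gene between the libraries, with Benjamini-Hochberg adjustment over all 5063 transcripts tested. It holds counting error only and compares libraries, not conditions. At an adjusted p of 0.05 it called 9 transcripts, or 0.178%. None of the 119 NMD transcripts tested was called, and 5 (4.20%) had an unadjusted p under 0.05, beside 339 (6.70%) of all transcripts tested. The median summed count was 8 for these NMD transcripts and 51 for all tested. Types with a median of 9 also had 0 called, with 8.19% of retained_intron and 8.85% of processed_transcript transcripts under 0.05 unadjusted. Among NMD transcripts the smallest p was that of Smpx-201 (62.4% and 74.0%, exact p = 0.00634, adjusted p = 0.502 by Benjamini-Hochberg). Rbm7-204 rested on 16 of 32 and 32 of 42 counts, a gap of 26.2 points with an exact p of 0.0272 and an adjusted p of 0.700. Others, named for their place in this test, were Psma3-206 (0 of 199, which allows up to 1.51%, and 6 of 254) and Hnrnpdl-201 (14 of 56 and 13 of 110). At this depth a missed call does not show that the shares are equal.

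Among the genes with at least 20 Known counts in each library, the leading one by share and by count was Smpx, which encodes a small X-linked protein of the muscle cytoskeleton. Smpx-201 (chrX:157698910-157752591, plus strand) had 133 of the gene's 213 Known counts in replicate 1 and 216 of 292 in replicate 2, a mean share of 68.2 ± 8.15% (n = 2). It was higher than the main coding transcript Smpx-203, with 73 and 74 counts, in both libraries. Its annotated coding sequence has the same start, the same stop and the same 255 bases before the stop as that of Smpx-203. The models part after the stop, where Smpx-201 has 2 junctions and Smpx-203 has 1. An added exon puts the last junction 52 bases after the stop in Smpx-201, against 17 in Smpx-203, and so just past the distance of 50 that defines the type. A second NMD transcript, Smpx-207, had 3 and 0 counts.

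Rbm7, an RNA-binding subunit of the nuclear exosome targeting complex, and Cyth2, a guanine nucleotide exchange factor for ARF GTPases, were the other genes of that depth led by an NMD transcript. Genes below it, such as Rbmx (13 of 16 and 10 of 11 counts on Rbmx-205, named after its values were seen), can be led by one too, and 23 genes had NMD counts and no other Known counts. Rbm7-204 took 16 of the 32 Known counts of replicate 1 (50%, interval 31.9 to 68.1) and 32 of the 42 of replicate 2 (76.2%, 60.5 to 87.9). Its coding rival Rbm7-201 had 14 and 8. Cyth2-203 had 37 of 57 (64.9%) and 21 of 35 (60.0%), a mean of 62.5 ± 3.47%, beside 19 and 13 for the coding Cyth2-202. Cyth2-203 differs by an alternative splice site, and its frame ends after 876 coding bases, where Cyth2-202 has 1197. Its support level in the annotation is 5, the weakest grade, whereas Smpx-201 and Rbm7-204 have level 1.

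Several of the next genes encode nuclear regulators. E2f6-204 comes from a repressor of the E2F family and had 36 of 106 and 34 of 89 counts, or 36.1 ± 3.00%. Yaf2-202, of a Polycomb-associated protein, had 27 of 72 and 29 of 67, or 40.4 ± 4.09%. These genes had close shares in the libraries, within 6 points of each other. Pcnp, a nuclear protein with PEST sequences, gave 19 of 46 and 41 of 62 counts to NMD transcripts, 41.3% and 66.1%, over Pcnp-206 and Pcnp-205. Crebzf, a bZIP transcription factor, gave 27 of 55 and 24 of 44, or 51.8 ± 3.86%, over 4 counted NMD transcripts of which Crebzf-205 (17 and 16) led. Prmt6, an arginine methyltransferase, stood at 7 of 20 and 10 of 25. Ncaph2-209, of a condensin II subunit, had 13 of 81 and 29 of 113, or 20.9 ± 6.80%.

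Other leading genes have roles outside the nucleus. Edc3, an activator of mRNA decapping, had 12 of 32 counts and 12 of 20 on Edc3-202, in which 1 exon is skipped. Tmem234, which encodes a transmembrane protein, had 33 of 76 and 59 of 122 (45.9 ± 3.49%), mostly on Tmem234-210 (22 and 35). Its stretch printed above, 45 bases long, ends the frame in Tmem234-209 as well. Fbxo17, an F-box protein of SCF ubiquitin ligases, had 20 of 43 and 19 of 51, or 41.9 ± 6.55%. For Fbxo17 the frame before the stop was longer in the NMD transcript (858 bases) than in the main coding one (726), since its extra exon adds coding sequence before the stop.

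**Figure D2:**
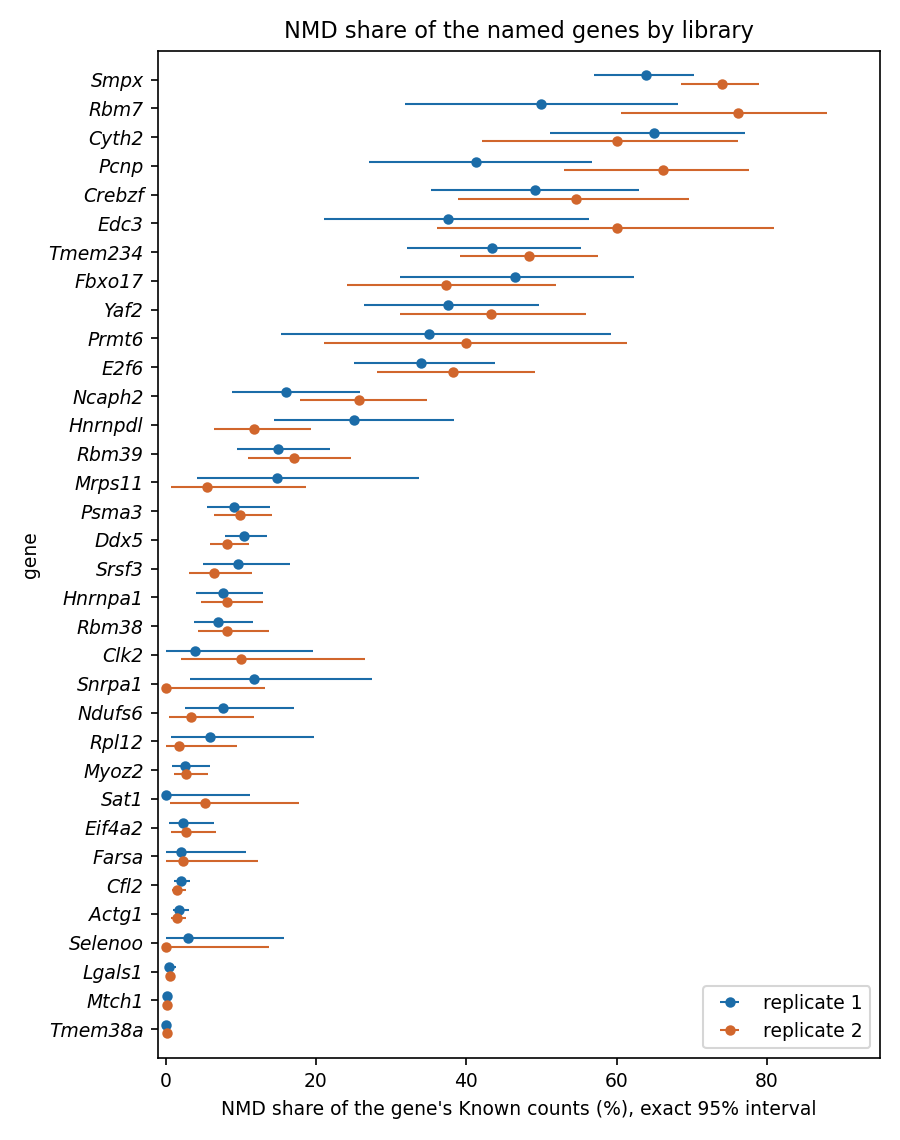
NMD share of Known counts (%) of each named gene, by library; points are single libraries and bars are exact 95% Clopper-Pearson intervals for counting error. Smpx has the highest mean share (68.9%), and the intervals of the libraries overlap in all 34 genes shown.

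At the other end stood the strongly expressed genes. Of genes with a counted NMD transcript, those with the highest Known counts were Tmem38a, a cation channel of the sarcoplasmic reticulum (0 of 975, which allows up to 0.308%, and 2 of 1051), Lgals1, or galectin-1 (3 of 608 and 6 of 1078), Cfl2, the muscle cofilin (16 of 804 and 12 of 769), Actg1, a cytoplasmic actin (13 of 708 and 11 of 709), and Mtch1, a mitochondrial outer membrane protein (1 of 678 and 1 of 642). Their shares ran from 0.0951% to 1.78% (means). In these genes the depth shows shares that could not be seen in weakly counted ones.

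The pooled share fell with the level of the gene. Among genes with an annotated NMD transcript it was 1.90% and 2.07% at 20 to 49 mean Known counts, 1.38% and 1.66% at 50 to 99, and 0.654% and 0.594% at 100 to 199. At 200 to 499 it was 0.991% and 1.12%, above the step before, at 500 to 999 0.236% and 0.229%, and at 1000 or more 0% and 0.00955%. The highest step holds 7 genes and the one before it 22. The 97 genes at 200 to 499 include Smpx (136 and 216 NMD counts) and Ddx5 (51 and 39), and the share of that step without these genes was not computed. Of the 34 genes at 10% in both libraries, 17 lay in the lowest step and 14 in the next. These were 2.89% of the 588 and 3.66% of the 382 genes with an annotated NMD transcript there. At 100 to 199 and at 200 to 499 the rates were 1.10% and 1.03%. Of the 34, 3 had over 100 Known counts in each library.

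Genes of the splicing machinery had higher pooled shares than all genes together. Among genes with an annotated NMD transcript, and without each list's leading member, their 5 lists together stood close to other genes. The lists were chosen with earlier results known, and each pooled share is the NMD counts of a list over its Known counts. Core spliceosome genes stood at 1.74 ± 0.174% (n = 2), SR proteins at 1.68 ± 0.274%, other RNA-binding splicing regulators at 1.65 ± 0.0570%, and hnRNP and PTB proteins at 1.19 ± 0.0771%, beside 0.239% for all genes. In each of these 4 lists the exact intervals of both libraries lay above those of all genes. The kinases of SR proteins (CLK, DYRK and SRPK) stood at 0.903 ± 0.334% on 3 and 5 counts. The 5 lists together held 8.98% and 7.65% of NMD counts and 1.32% and 1.30% of Known counts. No test was run on the lists.

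Splicing genes also carry more annotated NMD transcripts: 81 of the 140 counted genes of the 5 lists have one, against 3446 of 14444 genes in all. Restricted to genes that have one, the 5 lists stood at 2.54% and 2.25%, and all other genes at 1.07% and 1.18%. Leading members weigh heavily. Without the member with the most NMD counts in each, the means were 0.360% for the core spliceosome, 0.630% for SR proteins, 0.849% for other regulators and 0.726% for hnRNP and PTB proteins, each above the 0.239% of all genes. With both limits together, a comparison chosen after seeing the data, the 5 lists without their 5 leaders stood at 1.09% and 1.02%. Other genes with an annotated NMD transcript stood at 1.07% and 1.18%. Without the gene with the most NMD counts, these other genes stood at 0.976% and 1.04%. With both limits the core spliceosome stood at 0.579% and 0.783%, SR proteins at 0.715% and 0.614%, hnRNP and PTB proteins at 1.35% and 1.04%, and other regulators at 1.5% and 1.31%. Of these lists, only other regulators lay above the 1.07% and 1.18% of other genes in both libraries. Against other genes without their own leading gene, hnRNP and PTB proteins lay above in both as well, in replicate 2 narrowly (1.041% beside 1.037%). Of the 84 splicing genes with 20 Known counts in each library, 2 reached 10% in both, Rbm39 and Hnrnpdl. Over all 4585 genes of that depth, 34 did, all among the 1277 with an annotated NMD transcript.

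Ddx5, an RNA helicase of the spliceosome, led the core list with 51 of 487 and 39 of 474 counts on Ddx5-208, or 9.35 ± 1.59%. Snrpa1, a U2 snRNP protein, had 4 of 34 and then 0 of 26, which allows up to 11.5%. Among SR proteins, Srsf3 had 11 of 114 and 10 of 156 on Srsf3-201, or 8.03 ± 2.29%. This transcript holds an added exon of 456 bases in which the frame ends 34 bases in. Rbm39, a U2AF-related splicing factor, had 21 of 141 and 22 of 129 on Rbm39-225, or 16.0 ± 1.53%. Rbm38, an RNA-binding regulator of mRNA stability, had 13 of 186 and 12 of 148. Hnrnpdl had 14 of 56 and 13 of 110, or 25% and 11.8%, the NMD counts being nearly equal while the coding Hnrnpdl-202 went from 25 to 84. Hnrnpa1 had 12 of 158 and 16 of 196, or 7.88 ± 0.402%. Clk2, a kinase of SR proteins, had 1 of 26 and 3 of 30.

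Proteasome genes pooled to 0.444 ± 0.0535%. Most of these counts were on Psma3, a subunit of the proteasome core (18 of 199 and 25 of 254, or 9.44 ± 0.564%), and without it the list stood at 0.0943%. Lists below all genes in both libraries included those of aminoacyl-tRNA synthetases (0.0935 ± 0.0512%), cytosolic ribosomal proteins (0.0789 ± 0.0118%), the nuclear-encoded respiratory chain (0.0593 ± 0.00934%) and translation factors (0.0412 ± 0.00623%). Mitochondrial ribosomal proteins stood at 0.235% and 0.111%. Selenoproteins had 1 count of 1432 and 0 of 1865, which allows up to 0.161%, and polyamine genes 0 of 336, which allows up to 0.893%, and 2 of 355. Within genes that have an annotated NMD transcript, selenoproteins had 1 of 195 and 0 of 251, and polyamine genes 0 of 240 and 2 of 246. Leaders of the lists in this paragraph were Farsa, a phenylalanyl-tRNA synthetase subunit (1 of 50 and 1 of 43), Rpl12 (2 of 34 and 1 of 56), Ndufs6 of complex I (5 of 65 and 2 of 59), the helicase Eif4a2 (3 of 133 and 4 of 151) and Mrps11 (4 of 27 and 2 of 36). Selenoo had 1 of 33 and 0 of 25, which allows up to 12%. Sat1, which acetylates polyamines, had 0 of 31, which allows up to 9.68%, and 2 of 38. These rest on few counts and give no order.

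Contractile genes took 18.6% and 20.3% of Known counts and almost no NMD counts. Only 6 of their 134471 counts (0.00446%) were NMD counts in replicate 1, and 11 of 156855 (0.00701%) in the other library. Myoz2, a Z-disc protein that binds calcineurin, gave 5 of 195 and 7 of 255 of these, all on Myoz2-203, whose stop exon is printed above. Only 9 of the 54 counted contractile genes have an annotated NMD transcript, and within those 9 the share was 0.0634% and 0.121%. Genes with no annotated NMD transcript can only give 0, which limits the lists that follow. Glycolysis genes had 0 of 22150 and 0 of 24184, which allows up to 0.0135% and 0.0124%. In the 5 glycolysis genes with an annotated NMD transcript the counts were 0 of 6571 and 0 of 6975. Matrix and collagen genes had 0 of 36501 and 0 of 24471, or up to 0.00822% and 0.0123%. Only 4 of them have an annotated NMD transcript, with 0 of 1070 and 0 of 580 (exact intervals up to 0.344% and 0.634%). The NMD and exon junction factors themselves had 0 of 637 and 0 of 603, which allows up to 0.471% and 0.498% (exact intervals up to 0.577% and 0.610%). Only 3 of these factors have an annotated NMD transcript, with 0 of 20 and 0 of 19 (exact intervals up to 16.8% and 17.6%). Stress response and ATF4 targets had 0 counts, which allows up to 0.265% and 0.298%. Their 1 gene with an annotated NMD transcript had 0 of 583 and 0 of 460. Imprinted and growth genes had 0, which allows up to 0.0244% and 0.0235%, but their 1 gene with an annotated NMD transcript had only 6 and 0 Known counts.

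**Figure D3:**
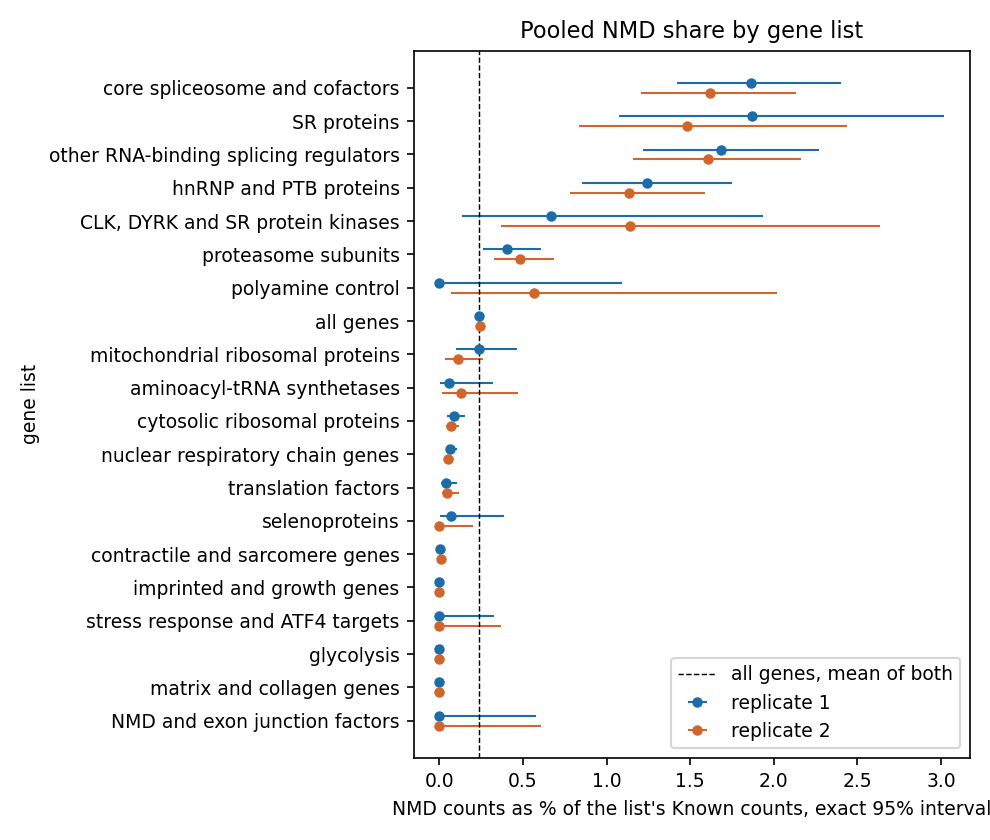
Pooled NMD share (% of a list's Known counts) of 19 gene lists and of all genes, by library, with exact 95% Clopper-Pearson intervals for counting error; the dashed line is the mean of all genes (0.239%). The 4 lists of splicing proteins at the top and the proteasome list lie above the line with their whole intervals in both libraries, and the contractile list lies at 0.00574%.

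The structure of the members follows the definition of their type, so the distances below are a description. The last junction lay at least 50 bases after the stop in 723 of 724 members, and in 55 of 18053 counted coding transcripts with a stop (0.305%). The median distance was 360.5 bases, with a range of 35 to 3932. At 50 to 54 bases stood 16 members, which held 153 and 234 counts, most of them on Smpx-201. At least 100 bases were found in 626 members, with 1310 and 1450 counts. Beyond the stop, 551 members had 2 or more junctions and 173 had 1. The annotated coding part was short, with a median of 312 bases before the stop against 1245 in counted coding transcripts of all genes. In 69 of the 725 members the annotation marks the coding start as not found, so their coding part is incomplete.

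**Figure D4:**
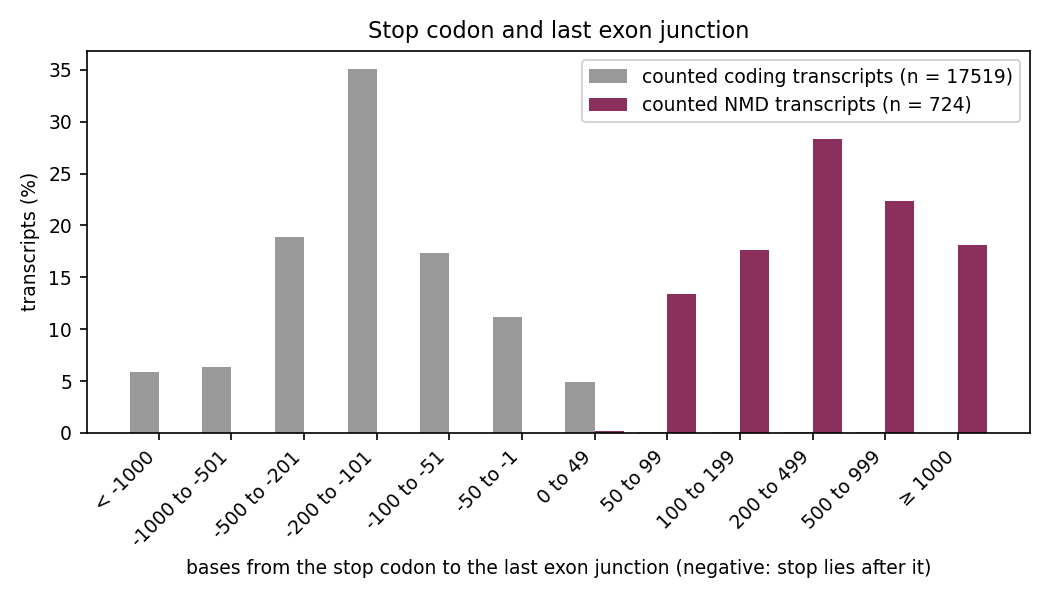
Share of transcripts (%) by the number of bases from the stop codon to the last exon junction, for 724 counted NMD transcripts and 17519 counted coding transcripts with at least 2 exons; negative values mean that the stop lies after the last junction. NMD transcripts lie at 50 bases or more with 1 exception, and most coding transcripts lie below 0.

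Each member was set beside the gene's most counted coding transcript, which was possible for 695 stops. The stop lay upstream in 650 (93.5%), at the same base in 34 (4.89%) and downstream in 11. The start codon was the same in 611. Where the start was shared and the stop upstream (574 members), the coding part was a median of 33.5% of that of the coding transcript. Alternative splice sites were the most frequent difference, in 283 of 696 members (40.7%), followed by skipped exons in 199 (28.6%), extra exons in 166 (23.9%), retained introns in 33 and an added intron within the last exon in 22. A single kind of difference was found in 635. The stop itself lay in an exon shared with the coding transcript in 461 (66.3%) and in an extra exon in 125 (18%).

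Among the 35 members of splicing genes that could be compared, the stop lay in an extra exon in 10 (28.6%) and at the same base as in the coding transcript in 8 (22.9%). Alternative splice sites were found in 5 (14.3%). In the other 660 members the figures were 17.4%, 3.94% and 42.1%. These are counts without a test.

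Members that keep the stop of the coding transcript held 13.1% and 16.5% of NMD counts, most of it on Smpx-201. The other 33 held 89 and 96 counts, or 5.26% and 5.07%, close to their part of the members. They include Hnrnpa1-203 (12 and 16 counts) and Hnrnpdl-201 (14 and 13), whose coding sequences equal those of Hnrnpa1-202 (960 bases) and Hnrnpdl-202 (1260 bases). In these the last junction lies 90 and 126 bases after the stop, beside 14 and 21 in the coding transcripts. Prmt6-202 and Crebzf-205 differ from single-exon coding transcripts: their genes' main coding transcripts have no junction, and each NMD transcript has 1 after the stop, at 148 and 286 bases. Among members of this kind, those in genes with at least 20 Known counts in each library (20 transcripts) had a median share of 1.71%, and those with an upstream stop (346) had 2.20%.

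Extra exons that hold the stop could also be counted in reads that match no annotated transcript. The 125 members with such a stop use 121 exons of 115 genes, 23 to 504 bases long with a median of 111, and 44 of the 125 lengths are multiples of 3. Inclusion is the share of reads with the exact exon among all reads that either hold it or splice across it. NMD transcripts carried 61.2% and 63.2% of the inclusion counts, and transcripts outside the annotation or matching only part of it 35.4% and 34.3%. A few counts (19 and 15, on 3 exons) lay on Known transcripts of other types, so an exon that ends the frame in 1 transcript can be used in another.

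Of 73 such exons with at least 20 informative counts in each library, the median inclusion was 3.92%, 34 were under 5% in both libraries and 16 were at 10% or more in both. Over the 73 exons, which share their libraries and depth, Pearson's r was 0.893 and Spearman's rho 0.631. The Rbm7 exon (105 bases) had 18 of 35 and 35 of 46 counts, or 51.4% and 76.1%. The Yaf2 exon (70 bases) had 29 of 76 and 35 of 82, and the E2f6 exon (66 bases) 40 of 115 and 38 of 97. The Fbxo17 exon (208 bases) had 26 of 53 and 23 of 61. For these 4 the inclusion was within 3 points of the gene's NMD share in each library.

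Rbm39 differed. Its stop exon of 73 bases (chr2:156178880-156178952, minus strand) was included in 54 of 184 counts (29.3%, interval 22.9 to 36.5) and 66 of 188 (35.1%, 28.3 to 42.4), above its NMD share of 14.9% and 17.1%. The annotated NMD transcript held 21 and 22 of those inclusion counts, and transcripts outside the Known class held 33 and 44. With the gene's Known, NIC and NNC counts as the denominator, where NIC and NNC are spliced transcripts outside the annotation, the Rbm39 share fell from 16.0% to 10.3%. The NMD counts stay the same there, so the share could only fall, and inclusion of the exon outside the Known class is not in it. Ankrd10, chosen after its values were seen, showed the same with a 112-base exon at 37 of 98 and 33 of 97, of which NMD transcripts held 3 and 3. The Srsf3 exon stood at 13 of 120 and 12 of 158, the Myoz2 exon at 6 of 205 and 7 of 269, and the Actg1 exon at 14 of 760 and 12 of 756.

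**Figure D5:**
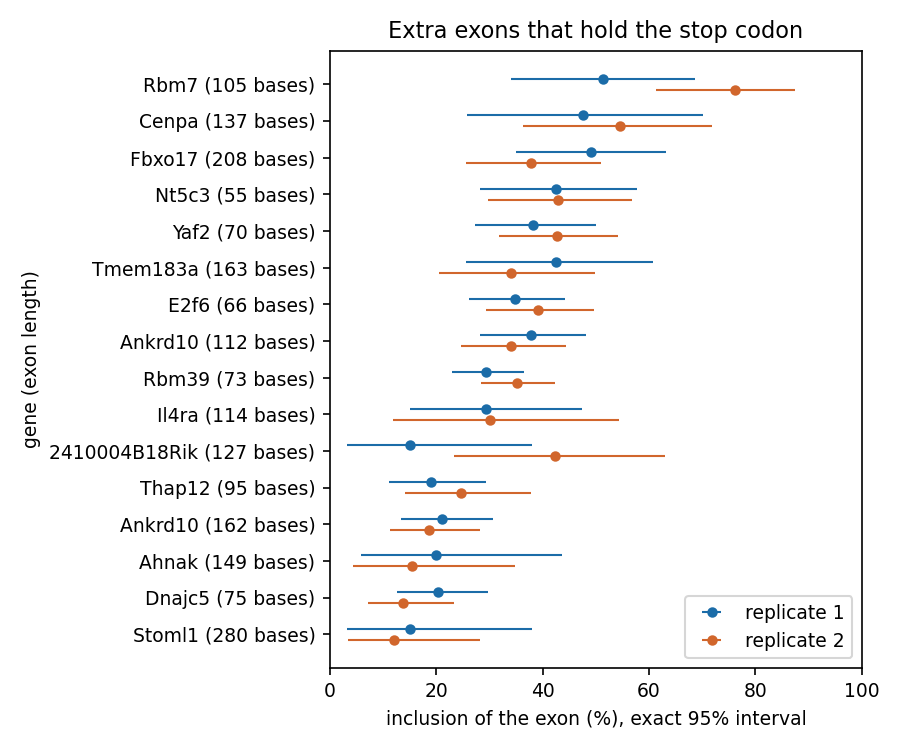
Inclusion (%) of the 16 extra exons with the stop codon that had at least 20 informative counts and 10% inclusion in both libraries, by library, with exact 95% Clopper-Pearson intervals for counting error; exon lengths stand beside the gene names. Rbm7 is highest in replicate 2 at 76.1%, and the exons at the lower end lie near 15%.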

How the data were processed

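The deposited transcript tables give raw counts of reads per transcript model and library in TALON format, with models on mm10 and GENCODE M21 identifiers, per the file headers and readme. No source used here gives the aligner or its version. Transcript types come from the deposited models, and all 141862 annotated models had the same type in GENCODE M21, which also gave stop codons and sequences. Transcripts whose read matches only part of an annotated splice chain are outside the Known class and so outside the shares. Shares, exact Clopper-Pearson intervals and Fisher's exact tests (genes with at least 20 Known counts in each library, transcripts with at least 5 in sum) were computed with Python 3.11.15, pandas 2.3.3 and scipy 1.17.1. The Fisher test was tested on simulated data, with changes placed only in genes well above the minimum of 20 Known counts. Its power for members of less counted genes was not tested. A count of 0 in a list or named gene is given with the share that 3 counts would be. Counts of 0 restricted to genes with an annotated NMD transcript are given without it. Spike-ins and loci outside the annotation stayed out of the NMD shares and CPM, but are part of each library's total counts. Of the transcripts with an unadjusted p under 0.05, 1 is not reported here.

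The members, gene lists and tests were chosen with earlier results of these data known. Genes named by rule are those of the 10 most counted NMD transcripts, the 10 highest shares, the leading members of each list, and the 5 highest Known counts. Alternatives covered denominators, minimum counts, protein-coding genes only, members in both libraries only, list leaders left out, and each replicate left out.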

Additional observations from a re-analysis of the deposited data

How the results depend on the processing

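The mean NMD share of Known counts (0.239%) moved by more than the SD between libraries to 0.177% over all counts of annotated genes, 0.203% over Known, NIC and NNC counts, 0.203% with only the members counted in both libraries and 0.216% without Smpx-201, and less with protein-coding genes only or without a replicate (0.234% to 0.245%). Genes at 10% or more (34) became 61, 14 and 131 with minimums of 10, 50 and 1 counts, and 58 to 65 with 1 replicate left out. Genes at 50% or more (3) became 6, 1 and 23 with those minimums, 1 over all counts, and 3 to 8 with 1 replicate left out. Known transcripts called between libraries (9) became 15 at a gene minimum of 50 counts, 18 at a transcript minimum of 10, 25 over Known, NIC and NNC counts and 32 over all counts, where the number tested also changed. No NMD transcript was called by Fisher's exact test under any of these settings, with 3 to 6 at an unadjusted p under 0.05. Lists above all genes in both libraries numbered 6, 4 without each list's leader and 7 in each single library. With only genes that have an annotated NMD transcript and without leaders, a setting chosen after seeing the data, the number was 1. In both settings without leaders, the all-gene reference kept its own leading gene. Of 68 shares of the 34 named genes over wider denominators, 67 were lower, those of Rbm39 (to 10.3% and 9.58%) and Clk2 (6.92% to 4.02% and 3.11%) by more than 1.5 times. A wider denominator leaves the NMD counts as they are, so no share could rise and only the size of the fall is informative. No paired analysis was possible because the series has a single group. Depth limits these values: 270 of 380 single-library members had 1 count, and shares under 5% in genes near 20 counts could not be seen.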
